A study of Arabidopsis thaliana with 4 samples.

Results

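The regions described here are places on the arms of the 5 nuclear chromosomes of Arabidopsis thaliana where cytosine methylation in the CHH context was lower in the ndx1-4 mutant than in Col-0, with no change listed in the other contexts. A region was taken if its mean CHH level was lower in ndx1-4, if no listed CG or CHG region overlapped it by 1 bp or more, and if its midpoint lay outside a pericentromeric interval set for each chromosome. This left 515 regions of 3213 listed CHH regions, and of 7023 differentially methylated regions in all contexts. Because the sign of the change chose them, their levels are given as a description and carry no test.

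The study compared genomic DNA of 14-day-old seedlings by bisulfite sequencing, which reads unmethylated cytosines as thymine. Col-0 is the wild-type accession. The line ndx1-4 carries a T-DNA insertion in NDX (NODULIN HOMEOBOX, AT4G03090), a gene for an atypical homeodomain protein. Each genotype had 2 libraries, but the level of a region is the authors' single mean per genotype, so no spread between libraries and no test over samples can be given, and read depth is unknown.

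CHH stands for a cytosine followed by A, C or T at both next positions. Such a site has no mirrored cytosine on the other strand, so its methylation has to be set anew after each replication. In Arabidopsis the RNA-directed pathway, in which RNA polymerase IV, RDR2 and DCL3 make small RNAs that guide AGO4 and the methyltransferase DRM2 to transcripts of RNA polymerase V, acts mainly at short transposons and at transposon edges among genes. CMT2, which works with the remodeller DDM1 and prefers CAA and CTA sites (together CWA), acts mainly in the bodies of long elements of pericentromeric heterochromatin.

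The reference sequence of 6 members shows the kinds of DNA that the results turn on. Capitals mark every CHH cytosine, as a capital C on the strand shown and as a capital G for a cytosine of the opposite strand. All are from RefSeq TAIR10.1, plus strand. The first 3 lie in protein-coding genes and kept 1.40, 3.14 and 4.63% of their listed Col-0 level. That level rests on 10 of 14, 11 of 26 and 21 of 36 CHH sites, and why the other sites were not used is not given.
IRX15, chr3:18618044-18618100: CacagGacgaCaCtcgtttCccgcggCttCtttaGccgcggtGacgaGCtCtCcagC
PIE1, chr3:4072771-4072852: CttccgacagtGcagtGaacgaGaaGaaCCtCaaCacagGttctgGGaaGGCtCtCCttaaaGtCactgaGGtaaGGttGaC
HAC1, chr1:29721643-29721781: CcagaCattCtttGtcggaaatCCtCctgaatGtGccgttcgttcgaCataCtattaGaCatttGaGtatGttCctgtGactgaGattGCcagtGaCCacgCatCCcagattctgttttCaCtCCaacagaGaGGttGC
The next 2 have other copies in the genome. The last is a run of GA repeats with nearly all of its CHH cytosines on the opposite strand. Its number of copies is not known, because the copy search masked such simple repeats.
Pseudogene AT1G27815, chr1:9690077-9690151: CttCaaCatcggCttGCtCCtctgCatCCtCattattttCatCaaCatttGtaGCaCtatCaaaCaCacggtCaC
Upstream of AT3G11110, chr3:3478766-3478850: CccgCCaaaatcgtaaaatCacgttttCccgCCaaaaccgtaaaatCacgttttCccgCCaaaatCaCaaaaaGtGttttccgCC
Upstream of AT1G27880, chr1:9708137-9708355: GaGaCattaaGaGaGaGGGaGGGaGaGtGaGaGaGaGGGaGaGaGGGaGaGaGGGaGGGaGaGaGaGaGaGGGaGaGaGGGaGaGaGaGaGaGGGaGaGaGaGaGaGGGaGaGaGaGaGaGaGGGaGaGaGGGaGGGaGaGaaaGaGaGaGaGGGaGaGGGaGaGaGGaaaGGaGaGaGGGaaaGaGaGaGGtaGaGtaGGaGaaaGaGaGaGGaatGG

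Most members were partly methylated in Col-0, and the median share of that level kept in the mutant was about 47%. The median CHH level over the 515 regions was 0.161 in Col-0 (95% interval of the median 0.150 to 0.169) and 0.0748 in ndx1-4 (0.0698 to 0.0811), both as fractions of methylated cytosine. The levels ranged from 0.0297 to 0.594 in Col-0 and from 0.0038 to 0.474 in ndx1-4. The median region fell by 0.0834. The median share of the Col-0 level kept was 47.1% (45.3 to 49.3), so the mean level of a typical member was lowered rather than lost. A mean does not show whether all libraries and sites were lowered alike. These intervals, like the Wilson intervals given with shares, cover the counting of regions and not the variation between plants. Members were short, with a median length of 124 bp (51 to 445 bp) and a median of 33 cytosines (4 to 136).

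The size of the loss was spread around this middle value. Of the members, 150 kept 50 to 60% of the Col-0 level and 125 kept 40 to 50%, while 12 kept 70% or more and 54 kept under 20%. The share kept rose with the Col-0 level, from a median of 17.2% in the 18 members below 0.05 to 64.3% in the 54 members at 0.3 or above. Both quantities use the same Col-0 value and the list holds only falls large enough to be called, so this order is a description.

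**Figure D1:**
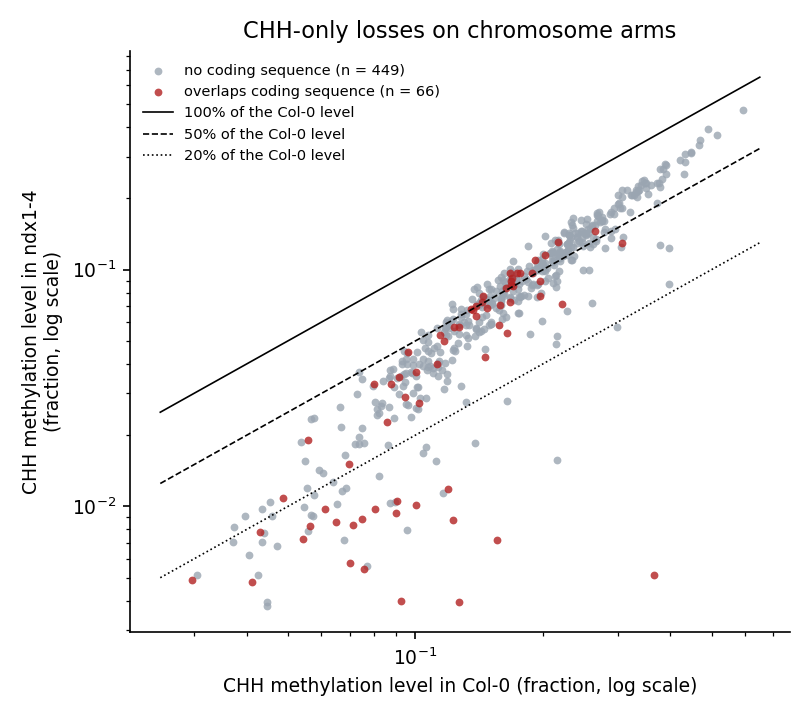
CHH methylation level of each of the 515 members in ndx1-4 (vertical) against Col-0 (horizontal), as fractions on log axes, 1 point per region and the authors' mean of each genotype. The lines mark 100%, 50% and 20% of the Col-0 level. Of the points, 461 lie on or above the 20% line, and the 54 below it include 21 of the 66 members that overlap coding sequence.

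Most members were DNA present in more than 1 place of the genome. Another copy, meaning a match elsewhere of at least 80% identity over at least 50% of the region, was found for 378 members (73.4%, 69.4 to 77.0). The median number of other copies was 3, and 145 members had 10 or more. Each match counts as a copy, and overlapping matches were not joined. A place with a repeated sequence can therefore count more than once. For 268 members at least 1 copy lay inside a pericentromeric interval, and pericentromeric copies made up 3594 of the 8148 copies of all members. Of the 378, 103 had a copy that was itself listed as a CHH loss, 70 had a copy listed as a CHH gain, and 41 had both. How many of the 8148 copies were listed was not counted, and other sets were not counted this way. These counts therefore have no background to be read against. Reads from near-identical copies are hard to place, and how the mapping handled them is not given in the sources used here.

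The member with most copies was the region upstream of AT3G11110 shown above. It lay 823 bp before that gene and had 759 matches elsewhere, 200 of them pericentromeric. Here the level went from 0.211 to 0.107, which left 50.8%. The pseudogene AT1G27815 region had 34 copies and fell further, from 0.299 to 0.0572, with 19.2% kept. The region at chr1:11408175-11408387, 1366 bp upstream of the formin gene AFH14 (formins nucleate actin filaments), had 76 copies and fell from 0.309 to 0.138.

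By annotation, 105 members (20.4%, 17.1 to 24.1) overlapped a protein-coding gene by 1 bp or more, and 89 of these lay wholly inside one. Coding sequence was touched by 66, an untranslated exon but no coding sequence by 23, and an intron alone by 16. Pseudogene records, under which RefSeq files transposon genes of this genome, were overlapped by 93 members (18.1%, 15.0 to 21.6), 1 of which is also in a gene. A further 95 members lay within 1 kb upstream of a protein-coding gene, 47 within 1 kb downstream and 10 in a noncoding RNA gene, and the remaining 166 lay further than 1 kb from any protein-coding gene and in none of these records. With pseudogene and noncoding records included, 256 members lay further than 1 kb from a protein-coding gene. The CHH-only gains on the same arms, chosen by the same exclusions but with the higher level in ndx1-4, had other shares. Of those 793 gains, 34.4% were within 1 kb upstream against 18.4% of the members, and 4.16% overlapped a pseudogene record against 18.1%. The median distance to a protein-coding gene was 990 bp for the members and 488 bp for the gains. CHH-only losses inside the pericentromeric intervals (1156 regions) overlapped a protein-coding gene in 6.14% and a pseudogene record in 36.2%. The difference between these sets was not tested, because listed regions are not replicates.

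**Figure D2:**
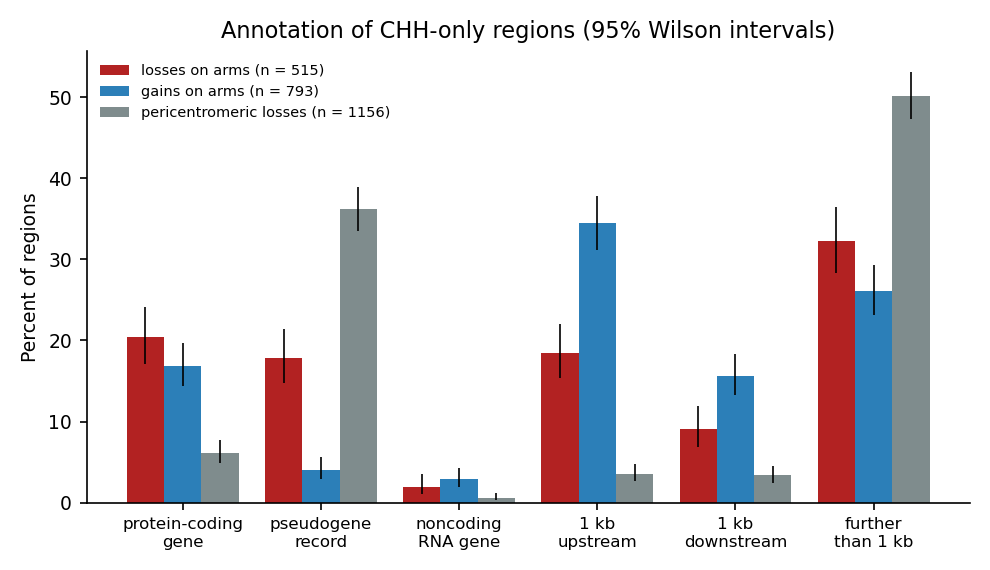
Percent of regions by annotation, each region counted once in the first class from the left that holds it, for CHH-only losses on arms (the members), CHH-only gains on arms and CHH-only losses in pericentromeric intervals, with 95% Wilson intervals that cover the counting of regions. The members hold 17.9% in pseudogene records, between the other sets, and 18.4% in the 1 kb upstream class, below the 34.4% of the gains.

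In base composition the members were nearer to the pericentromeric losses than to the arm gains in GC content. The median GC content was 35.9% in the members, 30.4% in the arm gains and 36.8% in the pericentromeric losses. CWA sites made up a median of 26.9% of CHH sites in the members, 31.6% in the gains and 28.6% in the pericentromeric losses. Listed levels are means over the CHH sites used in a region, so methylation of CWA sites alone was not measured here.

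Along the arms, members were densest beside the pericentromeric intervals. Within 0.5 Mb of an interval edge there were 117 members, or 23.4 per Mb of arm, and from 0.5 to 1 Mb there were 109, or 21.8 per Mb. The density then fell to 7.3 per Mb between 1 and 2 Mb, 3.90 between 2 and 4 Mb, 2.96 between 4 and 8 Mb and 1.95 beyond 8 Mb. The arm gains declined over a narrower range, from 15.4 to 5.07 per Mb between the same first and last bins. Of the members, 226 (43.9%) lay within 1 Mb of an edge, against 20.7% of the gains. Gene overlap of the members changed along the way, from 10.3% in the first 0.5 Mb to 42.4% beyond 8 Mb. The gene share of all arm DNA at these distances was not measured.

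**Figure D3:**
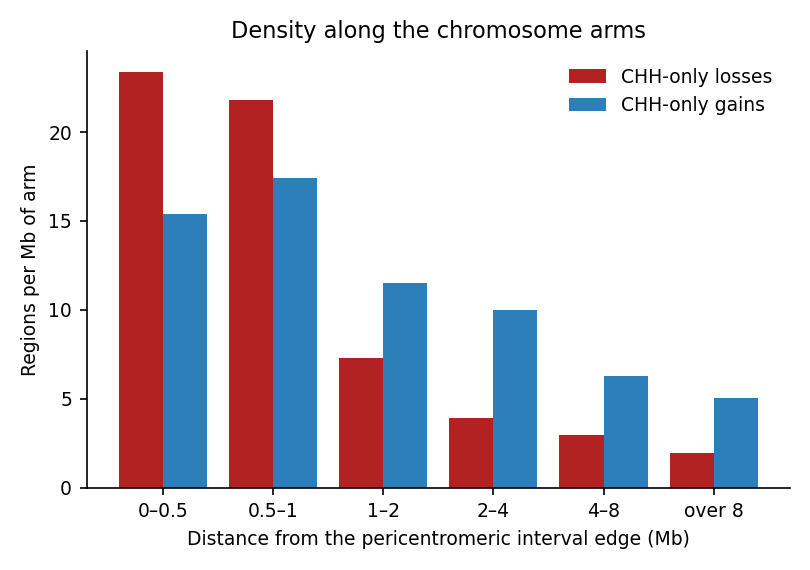
Number of CHH-only losses (the members) and CHH-only gains per Mb of chromosome arm, in bins of distance from the edge of the pericentromeric interval in Mb. Losses stand at 23.4 per Mb and gains at 15.4 per Mb in the first bin, and losses are the lower of the pair from 1 Mb outward.

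CHH-only losses were listed on both sides of the interval edges, and the pairs nearest to an edge show where the rule divides them. On chromosome 1 the nearest member to the edge, at chr1:12899542-12899656, went from 0.159 to 0.0751, and the nearest excluded loss, at chr1:12907520-12907759, from 0.521 to 0.259. On chromosome 2 the member at chr2:1947818-1947900 went from 0.268 to 0.170, and the excluded loss at chr2:6577877-6577959, on the other side of the interval, from 0.186 to 0.103. On chromosome 3 the member at chr3:11183341-11183435 went from 0.230 to 0.140, and the excluded loss at chr3:11221363-11221538 from 0.0996 to 0.0349. Of these pairs, and of those on chromosomes 4 and 5, no region overlapped a protein-coding gene. On chromosome 4 the member at chr4:2340389-2340570 went from 0.127 to 0.0537, and the excluded loss at chr4:2409673-2409840 from 0.242 to 0.119. On chromosome 5 the member at chr5:10093954-10094146 went from 0.0593 to 0.0142, and the excluded loss at chr5:10121908-10122034 from 0.0845 to 0.0290.

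Chromosomes 2 and 4 carried most members for their length, with 7.02 and 7.24 per Mb of arm, against 4.12, 4.29 and 4.85 on chromosomes 1, 3 and 5. On chromosome 2, 51 of the 106 members lay in the 2.0 Mb before the interval, and on chromosome 4, 70 of the 110 lay in the 2.4 Mb before it. The stretch of chromosome 4 from 1.5 Mb to the interval, chosen after its values were seen, held 60 members and 17 gains. In the Col-0 accession the short arm of chromosome 4 carries a heterochromatic knob, and whether these members lie inside it was not tested. Their median level went from 0.132 in Col-0 to 0.0566 in ndx1-4, with 44.5% kept, a value close to that of all members. Only 3 of the 60 overlapped a protein-coding gene, and none kept under 20%. Without this stretch, 89 members remained within 0.5 Mb of an edge and 77 between 0.5 and 1 Mb.

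Some members clustered. Another member lay within 1 kb of 75 of them and within 10 kb of 185. The gene with most members within 2 kb was AT4G04555, for a Myb family transcription factor, with 5, whose levels were 0.0951 to 0.106 in Col-0 and 0.0365 to 0.0443 in ndx1-4. Next to it, CRK39 (AT4G04540), a cysteine-rich receptor-like kinase gene, had 4 within 2 kb, at 0.0924 to 0.118 in Col-0 and 0.0356 to 0.0530 in ndx1-4. Around these neighbouring genes the members kept between 35.3 and 46.4%. In all, 32 genes had 2 or more members within 2 kb, among them AT1G47940 (a pentatricopeptide repeat protein), AT3G46380 (uncharacterized) and AT4G03635 (an F-box/LRR protein) with 3 each. AT1G11590, for a protein of the plant invertase/pectin methylesterase inhibitor superfamily, held 2 inside the gene, which kept 44.3% and 45.7%. The other genes taken by the same rule, AT1G11591, AT1G33870, AT1G47690 and AT1G47695, had 2 each. Members within 2 kb of both of a pair of neighbouring genes count for each.

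The 54 members that kept under 20% of the Col-0 level were compared with the other 461. The limit was set after the values were seen, and the contrast was not tested. Of the 54, 33 (61.1%, 47.8 to 73.0) overlapped a protein-coding gene and 21 (38.9%) overlapped coding sequence. Of the 461, 72 (15.6%, 12.6 to 19.2) overlapped a protein-coding gene and 45 (9.76%) overlapped coding sequence. Another copy in the genome was found for 21 of the 54 (38.9%) and for 357 of the 461 (77.4%, 73.4 to 81.0). Their median distance to the interval edge was 4.93 Mb, against 1.11 Mb. The 54 started lower, with a median Col-0 level of 0.0694 against 0.169, and ended at a median of 0.00880 against 0.0828. Levels this low were not set against a rate of failed bisulfite conversion, so their percent kept is uncertain. Over all members both traits also followed the Col-0 level. Gene overlap was 33.3% below a Col-0 level of 0.05 and 9.26% at 0.3 or above. The share with another copy was 50% and 96.3% in the same bins. The part of the starting level in the contrast was not tested. Pericentromeric CHH-only losses held 7 regions under 20% kept of 1156, of which 0 overlapped a protein-coding gene. Among the arm gains, 78 of 793 had a Col-0 level under 20% of the ndx1-4 level, and 28 of these (35.9%) overlapped a protein-coding gene and 14 (17.9%) coding sequence. Among the arm losses with a CG or CHG region the gene share did not follow this split, with 9 of 55 (16.4%) below 20% and 11 of 65 at or above it in a protein-coding gene.

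**Figure D4:**
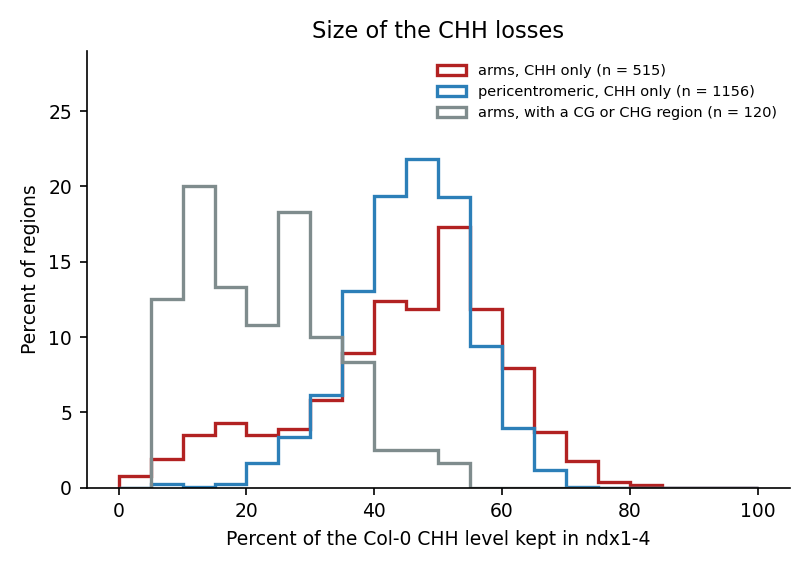
Distribution of the percent of the Col-0 CHH level kept in ndx1-4, as percent of regions per 5-point bin, for the members, the pericentromeric CHH-only losses and the arm losses that overlap a CG or CHG region. Members are most numerous between 40 and 60%, and 10.5% of members lie below 20% against 0.606% of pericentromeric losses.

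**Figure D5:**
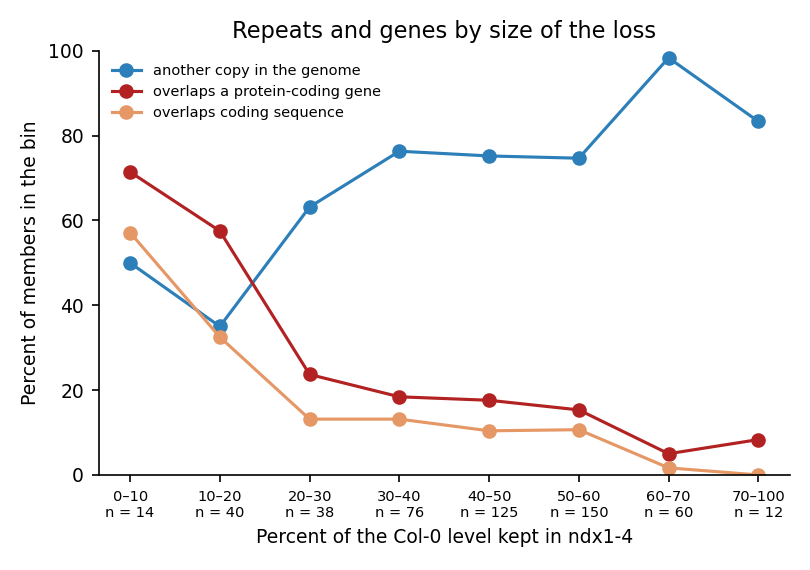
Percent of members with another copy in the genome, overlapping a protein-coding gene and overlapping coding sequence, in bins of the percent of the Col-0 level kept, with the number of members under each bin. Gene overlap goes from 71.4% of the 14 members below 10% to 5% of the 60 members at 60 to 70% and 8.33% of the 12 above, while the share with another copy is 50%, then 35% at 10 to 20%, 98.3% at 60 to 70% and 83.3% above.

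The cytosines behind these near-complete losses were often incomplete. The table gives the number of cytosines used in each region, and 419 of the 515 members (81.4%) used every CHH site of the reference. Among the 54 members under 20% this was 27 (50%), and among the 461 others 392 (85.0%). In 15 members the number used was lower than that of the reference and equalled exactly the CHH sites of 1 strand, and 10 of these were among the 54. The same held for 11 of the 793 arm gains (1.39%) and 21 of the 1156 pericentromeric losses (1.82%), against 2.91% of the members. Among the arm losses that overlap a CG or CHG region it held for 4 of 120 (3.33%). Which cytosines were used is not given, and the part of such gaps in the size of the loss was not tested. Among the 27 members under 20% that used every site, 13 (48.1%) overlapped a protein-coding gene and 11 (40.7%) had another copy, while among the 392 others that used every site these were 62 (15.8%) and 298 (76.0%).

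The IRX15 region shown above had the largest fall of all members. IRX15 (AT3G50220) is needed for xylan synthesis in secondary walls, and the 57 bp lie in its coding sequence. The level went from 0.365 in Col-0 to 0.00511 in ndx1-4, which left 1.40%. The 10 cytosines used equal the 10 CHH sites of the strand shown, of 14 on both strands. A second member in the same gene, 140 bp long and starting at position 18617798 of chromosome 3, fell from 0.0701 to 0.00576, with 8.21% kept.

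PIE1 (AT3G12810) encodes the ATPase of the SWR1 complex, which places the histone variant H2A.Z. Its region went from 0.126 to 0.00396, with 3.14% kept, on 11 cytosines, again the number on the strand shown, of 26. HAC1 (AT1G79000) encodes a histone acetyltransferase of the CBP/p300 type, and its region went from 0.156 to 0.00722, with 4.63% kept, on 21 of 36 sites. The region in ECA4 (AT1G07670), a calcium-pump gene, at chr1:2372388-2372508, went from 0.123 to 0.00876, on 26 of 38 sites, also the number on 1 strand. In all 4 the number of cytosines equalled that of 1 strand, though the table does not say which cytosines were used. The region 813 bp upstream of AT5G37910, at chr5:15098131-15098326, used all of its 54 sites and went from 0.116 to 0.0114, with 9.75% kept.

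Other large falls lay outside coding sequence. In AT5G01280, for a GPI-anchored protein, the member at chr5:113643-113981 reached 61 bp into an untranslated exon, with the rest of its 339 bp downstream of the gene. It used all 81 sites and went from 0.397 to 0.0867. At chr3:4728647-4728771, 628 bp upstream of ESM1 (AT3G14210), which steers glucosinolate breakdown towards isothiocyanates, the level went from 0.397 to 0.123 on 27 of 39 sites. The pseudogene AT1G31210, at chr1:11152073-11152183, went from 0.379 to 0.127. These 3 kept from 21.8 to 33.6% of the Col-0 level, more than the near-complete losses. The pseudogene AT3G24390, at chr3:8853470-8853545, rested on 6 cytosines and went from 0.216 to 0.0156. The region 4810 bp upstream of CLE4, a gene for a small signalling peptide, at chr2:13233030-13233211, went from 0.262 to 0.0724. The region 983 bp upstream of AT2G21130, for a cyclophilin-like protein, at chr2:9057464-9057647, went from 0.372 to 0.191. In the intron of AT1G25097, at chr1:8812658-8812788, the level went from 0.306 to 0.125. In 6 of the 12 largest falls the number of cytosines used equalled the CHH sites of 1 strand.

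Among members in coding sequence, the 6 largest falls were those in IRX15, HAC1 and PIE1, given above, and 3 that kept more of the Col-0 level. The member at chr2:1085550-1085647, in the overlapping genes AT2G03567 and AT2G03570, both uncharacterized, went from 0.307 to 0.129, with 42.2% kept. AT1G56530, for a hydroxyproline-rich glycoprotein, went from 0.222 to 0.0716, and AT5G26840 from 0.197 to 0.0772, which left 32.2% and 39.3%. At the other end, the smallest falls included the member in ABA3 (AT1G16540), the molybdenum cofactor sulfurase needed for abscisic acid synthesis, which went from 0.0297 to 0.00487. The members 82 bp downstream of RPS10B, a ribosomal protein gene, and 775 bp downstream of AT1G53210 went from 0.0306 to 0.00515 and from 0.0374 to 0.00816. All 3 had a Col-0 level below 0.05.

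The members with most cytosines, whose means average over most sites, kept between 17.0 and 59.1% of the Col-0 level. The GA repeat shown above, 506 bp upstream of the DEAD/DEAH helicase gene AT1G27880, used all 121 of its CHH sites, 120 of them on the opposite strand, and went from 0.431 to 0.255, which left 59.1%. At AT2G30740, a protein kinase gene, the member at chr2:13095085-13095416 had 108 of its 332 bp inside the gene, in an untranslated exon, and the rest upstream. It carried a CT repeat, used 126 sites and went from 0.164 to 0.0280, with 17.0% kept. A run of at least 6 CT or GA units was present in 9 members (1.75%). The pseudogene AT2G15540, at chr2:6778952-6779366, used 136 sites and went from 0.259 to 0.125. The remaining 3 were also pseudogenes: AT5G59640 (119 sites) went from 0.192 to 0.101, AT2G04043 (117 sites) from 0.0990 to 0.0419, and AT4G04140 (111 sites) from 0.175 to 0.0771.

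Genes of the methylation pathways with a member close by were counted beside all arm genes. Within 2 kb of a member lay 528 of the 25995 protein-coding genes on the arms, or 2.03%, and 106 genes, or 0.408%, were overlapped by one. Of 25 arm genes of the RNA-directed pathway, 1 had a member within 2 kb and none was overlapped. It was DRM1 (AT5G15380), a close relative of DRM2. The region within 2 kb of it, at chr5:4989706-4989866, went from 0.143 to 0.0745. The nearest gene to that region was AT5G15360, with the region 524 bp upstream of it. None of 11 genes for methylation maintenance and heterochromatin, of 7 for DNA demethylation and of 7 for NDX, its partners and the abscisic acid response had one. Of 13 flowering-time genes, 1 did. It was SVP (AT2G22540), a MADS-box repressor of flowering, with a region within 2 kb, at chr2:9584540-9584753, that went from 0.215 to 0.0846. At a background share of 2.03%, counts of 0 or 1 in lists of this length cannot be told apart from it.

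Among the 106 overlapped genes, 23 (21.7%) were named uncharacterized or hypothetical, against 10.2% of all arm genes. F-box proteins made up 5 (4.72% against 2.39%), protein kinases 4 (3.77% against 5.13%), and AGAMOUS-like MADS-box proteins 2 (1.89% against 0.285%), which were AGL34 and AGL36. The counts are small and no difference from the background was tested. The NDX gene itself, on the minus strand of chromosome 4 from 1366053 to 1371557, had no member within 2 kb. The nearest, at chr4:1380996-1381169 and 9439 bp away, went from 0.122 to 0.0608.

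CHH losses on the arms that did overlap a CG or CHG region, 120 in number, went lower than the members. Their median level went from 0.0970 in Col-0 to 0.0169 in ndx1-4, with 22.4% kept, against 47.1% in the members. Another copy was found for 30% of them and for 73.4% of the members, and 45.8% kept under 20%, against 10.5%. This comparison of listed regions was not tested. Within 10 kb of a listed CG or CHG region lay 261 members (50.7%), and within 1 kb 55 (10.7%). A CHH gain lay within 1 kb of 24 members (4.66%). The median distance to a CG or CHG region was 9819 bp for the members and 10628 bp for the arm gains. To the nearest other CHH gain it was 22223 bp and 24048 bp.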

How the data were processed

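Whole-genome bisulfite libraries (paired-end, 15-17 M raw reads each per the labels) came from 2 Col-0 and 2 ndx1-4 seedling samples, grouped by title. The labels do not say whether these came from separate plants. Bismark and the TAIR10 build are named in the submitters' processing notes, and the region caller and its thresholds are not given in the sources used here. The deposited table of the authors gives each region's methylation level as a fraction, 1 mean per genotype, and a count of cytosines. Its columns with the authors' own difference and area statistic were not used. The per-context region lists were not used. Depth is unknown.

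Differences, percent kept (100 times ndx1-4 over Col-0) and shares were computed with Python 3.11.15, pandas 2.3.3, numpy 2.4.6 and scipy 1.17.1, and plotted with matplotlib 3.10.9. Scripts were tested on simulated regions. Both ends of all 3177 nuclear CHH regions fell on a CHH cytosine of RefSeq TAIR10.1, which gave annotation and sequence. The excluded intervals were 12.9 to 16.9 Mb on chromosome 1, 2.0 to 6.6 on 2, 11.2 to 16.0 on 3, 2.4 to 5.8 on 4 and 10.1 to 14.4 on 5. Copies were sought with BLAST 2.17.0 (blastn) with low-complexity sequence masked, so copies of simple repeats can be missed. Medians carry binomial-order 95% intervals and shares Wilson intervals. Members and gene lists were chosen with earlier results of these data known. Named were the 12 largest falls, the 6 lowest shares kept at a Col-0 level of 0.1 or more, the 6 with most cytosines, the 6 largest falls in coding sequence, up to 10 genes with 2 or more members within 2 kb, the members nearest each interval edge, the 3 smallest falls and list genes within 2 kb. The region with most copies and the second IRX15 region were added after values were seen. The alternatives changed the exclusions, thresholds, weights, annotation limits and copy criteria, and left out each chromosome in turn.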

Additional observations from a re-analysis of the deposited data

How the results depend on the processing

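Of 183 values recomputed under 19 alternatives, 156 moved by less than their 95% interval, or for counts by less than 1.5 times. Leaving out any chromosome, or the chromosome 4 stretch from 1.5 Mb to the interval, moved none. Widening the intervals by 1 Mb left 289 members, of which 26.6% overlapped a gene, 26.0% reached the 1 kb upstream of a gene, other annotations included (19.8% of all members by the same measure), and 13.5% overlapped a pseudogene record, with a median gene distance of 630 bp. Falls of at least 0.1 left 166 members, with median levels of 0.255 and 0.129, a median difference of -0.115, 52.0% kept and a length of 136.5 bp. In these, 15.1% overlapped a gene, 24.7% reached the upstream 1 kb, 23.5% overlapped a pseudogene record, 84.3% had another copy and 24.7% of CHH sites were CWA. The median length was 139 bp with at least 20 cytosines and 158 bp when weighted by length. Coding overlap alone gave 12.8%, a 2 kb upstream window 35.1%, and copies at 90% identity over 80% or 70% over 30% gave 50.7% and 81.4%. Without members that kept under 20%, an alternative chosen after seeing the data like that of the chromosome 4 stretch, the median levels were 0.169 and 0.0828, with 49.4% kept, 15.6% in genes and 77.4% with another copy.

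No paired analysis was possible because the table gives 1 mean per genotype, and for the same reason no library was left out. Falls below the calling threshold are outside the list, and a place that is not listed is not shown to be unchanged. The number of cytosines behind a mean limits its precision.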
